A study of Mus musculus with 8 samples.

Results

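Adhesion molecules that carry leukocytes from blood into tissue were examined in whole spines of 4 PGISp mice and 4 control mice. The group comprised 9 genes chosen by name, 6 of the leukocyte side (Selplg, Itgb2, Itgam, Itgax, Itgal and Itga4) and 3 of the endothelial side (Selp, Sele and Icam1), out of 16593 genes named on the array. In proteoglycan-induced spondylitis (PGISp), mice are injected with a human cartilage proteoglycan extract in an adjuvant, and arthritis of peripheral joints and spine follows. All 8 mice were BALB/c animals with an IL4 knockout, so the controls lacked interleukin-4 as well. The PGISp mice were females injected on days 0, 21 and 42 from 3 months of age. The controls received no extract, their sex is not stated, and spines were taken at week 12. Only PGISp mice with severe peripheral arthritis were used, since disease in the spine itself could not be scored before RNA extraction. Each spine was read on 1 Illumina MouseRef-8 array, and the arrays are named by their position on a single BeadChip, A, C, E and G for PGISp and B, D, F and H for control.

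Leukocytes leave the blood in steps. Selectins on activated endothelium catch glycosylated ligands on the leukocyte, above all the scaffold PSGL-1 encoded by Selplg, and the cell rolls along the vessel wall. Chemokine signals then switch integrins to a binding state, and these hold the cell on immunoglobulin-family ligands such as ICAM-1 (Icam1) and VCAM-1 (Vcam1). In bone marrow, which a whole spine contains, the same leukocyte genes are expressed by the resident blood-forming cells.

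Of the 9 genes, 8 had a probe, 1 each, and Itgal, the alpha chain of LFA-1, had none in the annotation used and is not analysed here. Values are log2 expression values as normalized by the authors. Background lay at 6.73 to 6.80 on the 8 arrays, taken as the level under which 95 of 100 probes of odorant and pheromone receptors fell. A probe was tested where its mean value exceeded the array median of 6.77, and 6 of the 8 passed. Differences are PGISp minus control, tested in limma over all 9608 genes at a Benjamini-Hochberg adjusted p under 0.1, with 4 arrays a group.

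In PGISp spines Selplg and Selp rose, a leukocyte ligand and the endothelial and platelet selectin that binds it. The other 4 tested genes (Itgb2, Itgam, Sele and Icam1) had positive differences that did not pass the test. Thus 2 of 6 were called higher and 0 lower in limma (at an unadjusted p under 0.05, 3 higher and 0 lower, and by the methods' t-test 1 and 0), where 6.26% of all genes tested were called higher and 4.56% lower. The median difference of the 6 genes was 0.18, against -0.005 over all genes, 48.5% of which had a positive difference. The filter was on the mean over all 8 arrays, and Sele passed it only through PGISp (mean 6.89 in PGISp and 6.72 in control spines), so the counts and medians over the 6 are descriptions.

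Selplg encodes PSGL-1, the main leukocyte ligand of P-selectin. It read 9.16, 9.32, 9.16 and 9.01 on PGISp arrays A, C, E and G, and 8.74, 8.58, 8.40 and 8.20 on control arrays B, D, F and H. The groups did not overlap, and PGISp G and control B, the nearest pair, lay 0.28 apart. Selplg rose by 0.69 on the log2 scale (standard error 0.11), or 1.61-fold (95% interval 1.35 to 1.91, adjusted p = 0.00926 in limma). This gene was called under each of the 18 alternatives run, with an adjusted p from 0.00312 to 0.0776.

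Itgb2 encodes the beta chain that LFA-1, Mac-1 and their relatives share. It read 7.12, 7.36, 7.47 and 7.14 on PGISp arrays A, C, E and G, and 7.20, 7.09, 7.07 and 7.03 on control arrays B, D, F and H. Only C and E stood above the highest control, so the groups overlapped. The difference was 0.17 (95% interval -0.02 to 0.37, adjusted p = 0.277 in limma), and the upper bound corresponds to 1.29-fold. It was 0.11 without PGISp E, and 0.11 to 0.22 with single arrays left out. Itgb2 lay on average only 0.43 above background, so the bound is one of array values and may not bound the change in RNA.

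Itgam encodes the alpha chain of Mac-1, carried by neutrophils and monocytes. Its values were 7.05, 7.10, 6.90 and 6.92 on PGISp arrays A, C, E and G, and 6.90, 6.91, 6.98 and 6.90 on control arrays B, D, F and H. PGISp A and C were above all controls, while E and G lay within them. The difference was 0.07 (95% interval -0.07 to 0.21, adjusted p = 0.578 in limma), and the upper bound corresponds to 1.16-fold. It was 0.03 without PGISp C, and 0.03 to 0.10 with single arrays left out. Itgam lay on average only 0.21 above background, so the same limit holds for its bound.

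The probes of Itgax and Itga4 stayed at or near background. Itgax, the alpha chain of an integrin of dendritic cells and macrophages, read 6.56 to 6.81 in PGISp and 6.56 to 6.77 in control spines and was above background on 2 of 8 arrays, 1 of each group. Itga4, the alpha chain of the VCAM-1 receptor, read 6.48 to 6.73 in PGISp and 6.56 to 6.73 in control spines and was above background on 0 of 8 arrays. No fold is given for either, and neither entered the test.

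Promoters of the 3 endothelial genes are shown. Selp rose while Sele and Icam1 did not pass the test, but whether Selp changed more than Sele or Icam1 was not tested. Each is the 250 bases before the annotated start, from RefSeq on GRCm38.p6, plus strand, at chr1:164115014-164115263 (Selp), chr1:164047984-164048233 (Sele) and chr9:21015690-21015939 (Icam1). Promoters were found for 6 of the 9 members. Capitals mark matches to GAANTTCC, a string found in some binding sites of NF-kappaB, and to TATAAA, on either strand. Other forms of these sites were not searched for.
Selp: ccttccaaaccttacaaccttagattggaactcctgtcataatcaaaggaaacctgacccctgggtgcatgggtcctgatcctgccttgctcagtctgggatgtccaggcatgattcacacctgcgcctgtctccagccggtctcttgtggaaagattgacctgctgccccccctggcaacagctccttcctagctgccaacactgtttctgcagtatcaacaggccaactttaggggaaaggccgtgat
Sele: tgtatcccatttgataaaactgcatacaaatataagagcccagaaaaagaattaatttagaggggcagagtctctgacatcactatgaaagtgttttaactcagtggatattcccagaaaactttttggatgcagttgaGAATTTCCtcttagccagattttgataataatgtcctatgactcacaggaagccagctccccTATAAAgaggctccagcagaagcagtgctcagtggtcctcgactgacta
Icam1: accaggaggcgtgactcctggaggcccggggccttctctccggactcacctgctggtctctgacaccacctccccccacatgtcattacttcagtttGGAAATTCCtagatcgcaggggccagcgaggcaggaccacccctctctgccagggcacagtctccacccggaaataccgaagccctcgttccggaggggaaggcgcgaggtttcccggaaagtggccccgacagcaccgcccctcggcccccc
GAANTTCC occurred in Sele, 111 bases before the start, and in Icam1, where both strands of 1 stretch beginning 153 bases before the start matched. It was found in 3.1% of 32851 promoter windows of this length. TATAAA occurred in Sele, 49 bases before the start, and in 12.4% of windows. Neither was found in the windows of Selp, Itgam, Itgax or Itga4. GAGGAA, the core of the PU.1 site of myeloid genes, was found on either strand in Itgam (2 matches) and in Sele, where it overlapped GAANTTCC, and in 23.3% of windows. A match of letters is a description of the sequence and not evidence of binding. Lack of a match does not show that a site is absent.

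Selp encodes P-selectin, stored in granules of endothelial cells and platelets. It read 7.65, 8.0, 7.75 and 7.71 on PGISp arrays A, C, E and G, and 7.53, 7.37, 7.30 and 7.20 on control arrays B, D, F and H. The groups did not overlap, and the nearest pair, PGISp A and control B, lay 0.12 apart. Selp rose by 0.43 (standard error 0.10), or 1.35-fold (95% interval 1.16 to 1.56, adjusted p = 0.0301 in limma). The call was lost without control F (difference 0.41, adjusted p = 0.101 in limma) and under the methods' t-test, at an adjusted p of 0.116, over a range of 0.0123 to 0.119 for its alternatives.

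Sele encodes E-selectin, which endothelium makes on stimulation by inflammatory cytokines. It lay at the edge of detection, with 6.93, 7.02, 6.83 and 6.77 on PGISp arrays A, C, E and G, and 6.77, 6.77, 6.68 and 6.68 on control arrays B, D, F and H. All 4 PGISp arrays but 2 of the 4 control arrays were above background. The lowest PGISp and the highest control value were equal to 2 decimals. The difference was 0.16 (95% interval 0.01 to 0.31, unadjusted p = 0.0368, adjusted p = 0.186 in limma). Since 2 of the control values lie at background, the size of the change could not be measured. Sele passed the test in 1 of 18 alternatives, the limma fit with an intensity trend and robust variances (adjusted p = 0.0826).

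Icam1, a ligand of LFA-1 and Mac-1, is made by endothelium and by many other cells. Its values were 7.35, 7.54, 7.48 and 7.19 on PGISp arrays A, C, E and G, and 7.11, 7.34, 7.08 and 7.32 on control arrays B, D, F and H. PGISp G lay below control D and H, so the groups overlapped. The difference was 0.18 (95% interval -0.03 to 0.39, adjusted p = 0.296 in limma), with an upper bound of 1.31-fold. Icam1 lay on average 0.55 above background, so this bound too is one of array values. The low controls were B and F, the 2 arrays on which the Y-linked gene Eif2s3y read 8.57 and 8.33, against 6.49 to 6.91 on the others. Without B and F the Icam1 difference was 0.06 (adjusted p = 0.867 in limma), that of Selplg 0.77 (adjusted p = 0.0539) and that of Selp 0.50 (adjusted p = 0.119). The part of sex in these values was not tested.

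**Figure D1:**
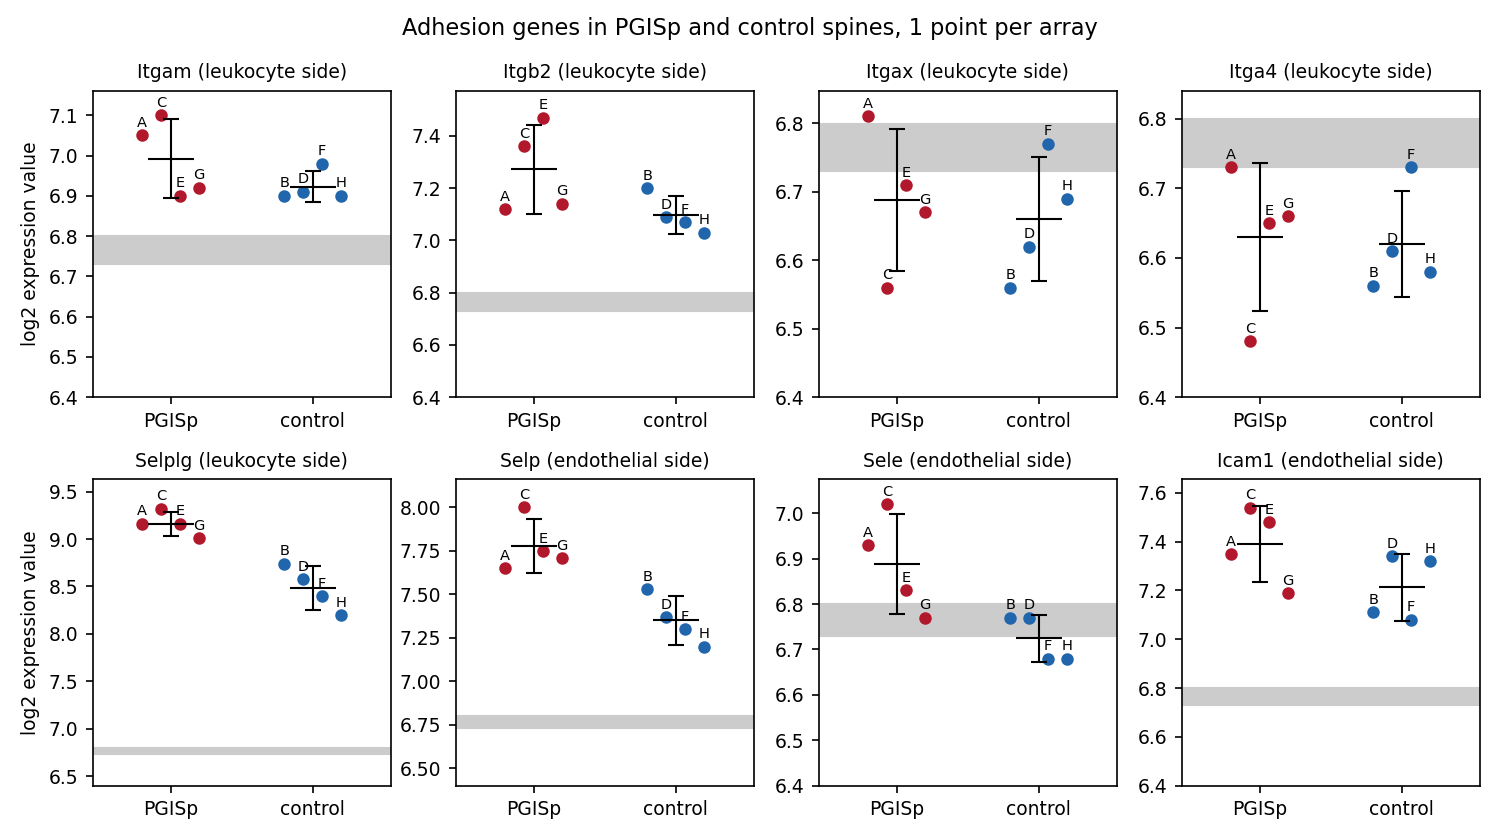
Log2 expression value of each of the 8 measured adhesion genes on each array, PGISp (red) and control (blue), with array letters, group mean and SD (n = 4 each). The grey band is the range of background over the arrays (6.73 to 6.80). Selplg and Selp show no overlap between groups, Sele groups meet at 6.77, and Itgax and Itga4 lie in or under the band, but for Itgax on PGISp A (6.81).

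Values of Selplg and Selp did not overlap between the groups, with PGISp above control, a pattern seen in 7.77% of all genes tested. Sele is left out of this count, since its groups met at 6.77 and it passed the filter only through PGISp. No member lay with PGISp wholly below control, as 5.67% of all genes did. By side, the median difference was 0.17 for the 3 leukocyte genes and 0.18 for the 3 endothelial genes. Each side held 1 gene that rose. The difference between sides was described only by these medians and was not tested.

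**Figure D2:**
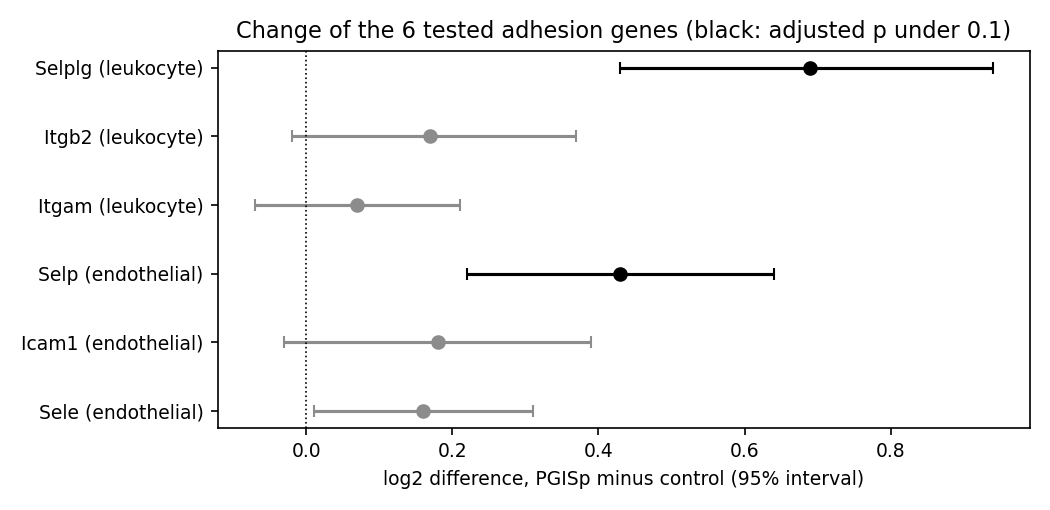
Log2 difference, PGISp minus control, of the 6 tested adhesion genes with 95% intervals from limma, leukocyte side above endothelial side. Black points passed an adjusted p under 0.1 (Selplg 0.69 and Selp 0.43), and grey points did not.

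Changes of 2 genes were then set against each other within each array. Of 9 pairs planned, 5 had both genes above the filter. An exact two-sided permutation test over the 70 assignments of the arrays was used, whose smallest p is 0.0286. The log2 ratio of Selplg to Selp was 1.51, 1.31, 1.41 and 1.30 on PGISp arrays A, C, E and G, and 1.20, 1.21, 1.09 and 1.01 on control arrays B, D, F and H. This ratio was higher in PGISp by 0.26 (exact permutation p = 0.0286, adjusted p = 0.0714 over the 5 pairs, higher in 4 of 4 PGISp arrays). The pair of Selplg and Sele is among the 5, but no difference is given for it, since Sele lay at background on 2 of 4 control arrays. That pair had the same exact p, and the adjusted p of 0.0714 depends on counting it. With that pair left out, the adjusted p of Selplg relative to Selp would lie above 0.1. On average Selplg lay 2.07 above background and Selp 0.81, and the part of signal level in the ratio was not tested.

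Within the integrin system no pair differed beyond the spread of the arrays. Itgam changed relative to Itgb2 by -0.10 (exact permutation p = 0.486, adjusted p = 0.607), with group means of the log2 ratio of -0.28 ± 0.21 in PGISp and -0.18 ± 0.09 in control spines (SD, n = 4 each). Itgb2 relative to its ligand Icam1 gave -0.12 ± 0.11 in PGISp and -0.11 ± 0.19 in control spines (SD, n = 4 each, exact permutation p = 1.0). For Itgam relative to Icam1 the change was -0.11 (exact permutation p = 0.314, adjusted p = 0.524). These changes depended on which arrays were used. Without controls B and F they were 0.15 for Itgb2 relative to Icam1 and 0.03 for Itgam relative to Icam1, and without PGISp E that of Itgam relative to Itgb2 was -0.01.

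Genes around these molecules were read from lists grouped by function. Of 17 tested genes that regulate integrin activation or signal from integrins, 8 rose and 0 fell in limma, with a median difference of 0.33 (13 rose and 0 fell at an unadjusted p under 0.05). The list does not separate genes that promote integrin adhesion from genes that restrain it, so these counts give no direction of integrin activity. Beside this and the lists below, 6.26% of all genes tested rose and 4.56% fell in limma. Medians were higher for genes of all leukocytes (0.62, 6 of 8 rose) and for neutrophil markers (0.72, 13 of 16 rose). Whether this list changed apart from leukocyte genes in general was not tested. Cytip, which regulates LFA-1 adhesion through cytohesin, rose 1.73-fold, to 9.75 ± 0.21 in PGISp spines, against 8.95 ± 0.18 in control spines (SD, n = 4 each). Its adjusted p in limma was 0.00635. Rac2, the Rac GTPase of blood cells, rose 1.71-fold, to 9.48 ± 0.19 in PGISp spines, against 8.70 ± 0.09 in control spines (SD, n = 4 each, limma adjusted p = 0.00254). Fgr, a Src-family kinase downstream of integrins in myeloid cells, rose 1.58-fold (8.21 ± 0.11 in PGISp and 7.56 ± 0.08 in control spines, SD, n = 4 each), at an adjusted p of 0.00185 in limma. Pstpip1, an adaptor of the leukocyte cytoskeleton, rose 1.42-fold (adjusted p = 0.0578). The call for Pstpip1 was lost without PGISp A or C or control B, F or H and by the methods' t-test, over an adjusted p of 0.012 to 0.206 for its alternatives. The methods' t-test called 4 of the list, and 5 passed without controls B and F.

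Of 11 other integrin subunits, 0 were called in limma (3 rose and 0 fell at an unadjusted p under 0.05, and 0 by the methods' t-test). In limma with a trend and robust variances 2 were called higher, and 1 with array weights, without PGISp A or without PGISp G. Their differences ran from -0.10 to 0.27 with a median of 0.02. Of 13 genes that carry or build selectin ligands, 1 rose and 1 fell, with a median of 0.02. The gene that rose was Cd44, a hyaluronan receptor that can also bind E-selectin, at 1.20-fold (adjusted p = 0.063), and its other tested probe had a difference of -0.01. The gene that fell was Cd24a, a glycoprotein ligand of P-selectin, by 0.26 on the log2 scale (adjusted p = 0.06). Cd24a read 6.79 to 6.84 in PGISp spines, at or close to background, so 0.26 is a difference of array values and may not give the size of the fall in RNA. Both calls were lost without PGISp A or C or control B, D or H and by the methods' t-test, and also without control F for Cd44 and without PGISp E for Cd24a (adjusted p up to 0.224 and 0.134 in limma over the alternatives).

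Of 12 other molecules of vascular adhesion and passage through the vessel wall, 0 rose (also 0 at an unadjusted p under 0.05 and by the methods' t-test) and 1 fell in limma, with a median of -0.02. Vcam1, the ligand of the integrin that holds the Itga4 chain, read 10.59 ± 0.19 in PGISp and 10.35 ± 0.25 in control spines (SD, n = 4 each). Its difference of 0.23 did not pass (95% interval -0.06 to 0.53, adjusted p = 0.33), and it was 0.11 without control H and 0.15 without PGISp E. Pecam1, an adhesion molecule of endothelial junctions, read 7.63 ± 0.16 in PGISp and 7.60 ± 0.14 in control spines (SD, n = 4 each), a difference of 0.02 with a 95% interval of -0.19 to 0.24 (adjusted p = 0.913 in limma). Cd99l2, a relative of CD99 that acts in leukocyte passage, fell by 0.50 on the log2 scale (8.84 ± 0.12 in PGISp and 9.35 ± 0.08 in control spines, SD, n = 4 each). The adjusted p of this fall was 0.00635 in limma. The dimmer Cd99l2 probe had a difference of -0.19 that did not pass (adjusted p = 0.181).

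Markers of the cells that carry these molecules were read on the same arrays. In a whole spine, a change in the number of cells of a type and a change in RNA per cell cannot be told apart. Of 16 neutrophil markers 13 rose and 0 fell, with a median difference of 0.72. Their summed level (log2 of the sum of linear values) was 16.75 to 16.90 in PGISp and 16.27 to 16.49 in control spines. The markers named here and below have the brightest probes of their lists, which does not rank the genes by abundance. S100a8 read 14.32 to 14.48 in PGISp and 14.24 to 14.48 in control spines, and 14.48 is the highest value on every array, so no fold is given for it. S100a9, close under that limit, had a ratio of 1.11 (adjusted p = 0.277 in limma), and Ltf rose 1.46-fold (adjusted p = 0.0208). The dimmer Ltf probe rose 2.08-fold (adjusted p = 0.000756 in the limma fit of every probe). Of 8 genes of all leukocytes 6 rose and 0 fell, with a median of 0.62 and a summed level of 14.12 to 14.37 in PGISp and 13.51 to 13.75 in control spines. Of these, Laptm5 had a ratio of 1.24 (adjusted p = 0.16), while Coro1a rose 1.59-fold (adjusted p = 0.0044) and Arhgdib 1.76-fold (adjusted p = 0.00022).

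Of 14 endothelial markers 0 were called in limma (2 rose and 0 fell at an unadjusted p under 0.05, and 0 by the methods' t-test). Their median was 0.02, and their summed level was 11.93 to 12.18 in PGISp and 11.95 to 12.14 in control spines. Vwf, Egfl7 and Esam had ratios of 0.93, 0.95 and 1.03. Kdr, a defining endothelial receptor, was above background on no array. Of 8 megakaryocyte and platelet markers 0 were called (0 at an unadjusted p under 0.05 and by the methods' t-test), with a median of 0.01 and a summed level of 13.18 to 13.42 in PGISp and 13.06 to 13.34 in control spines. Ppbp, Pf4 and Treml1 had ratios of 1.11, 1.08 and 0.90.

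Of the remaining lists, 2 of 6 tested monocyte and macrophage markers, 1 of 6 of T and NK cells, 0 of 2 of dendritic cells, 0 of 4 of B cells and 0 of 5 of erythroid cells rose in limma. At an unadjusted p under 0.05 these counts were 3, 1, 1, 0 and 0, and 1 erythroid marker was lower. Among dendritic markers Flt3, Cd209a, Xcr1, Clec9a and Ccr7 were above background on no array, and among T cell markers Cd4 and Cd8a were not either. Of 8 bone matrix genes of the spine 3 rose and 0 fell (4 and 0 at an unadjusted p under 0.05, median 0.41). Of 10 skeletal muscle genes 1 fell and 0 rose (7 and 0 at an unadjusted p under 0.05), 0 had a positive difference, and the median was -0.45. The part of these tissues in the members' values was not tested.

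**Figure D3:**
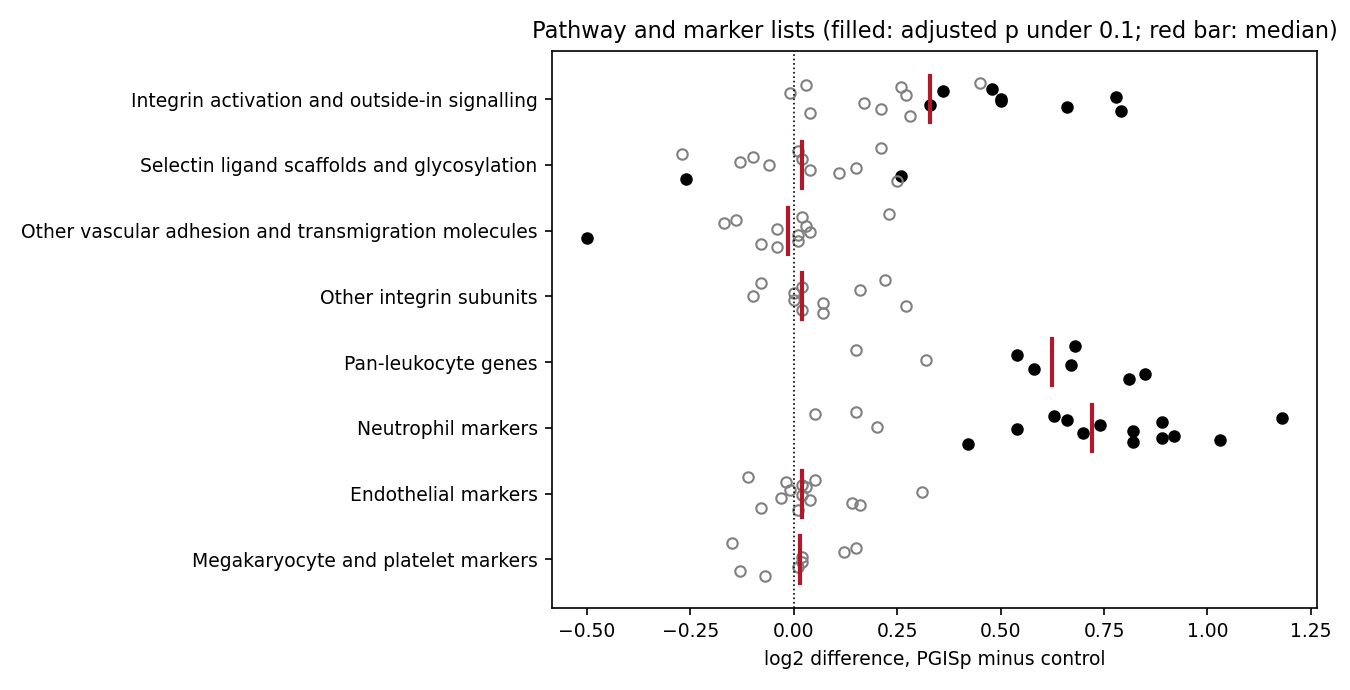
Log2 difference, PGISp minus control, of each tested gene in 8 lists, 1 point per gene. Filled points passed an adjusted p under 0.1 in limma and red bars are medians, which run from 0.72 for neutrophil markers to 0.02 for endothelial markers and -0.02 for other vascular adhesion molecules.

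Selplg and Selp were then set against the mean log2 value of these lists in each array. This comparison was chosen after their values were seen, so it is a description with no test. Relative to leukocyte genes in general, Selplg stood at -1.07 ± 0.12 in PGISp and -1.18 ± 0.14 in control spines (SD, n = 4 each), a change of 0.11. Relative to neutrophil markers the change was 0.02. The groups overlapped in both. The neutrophil mean includes S100a8 and S100a9, which lie at or close under the highest array value, and their part in the change of 0.02 was not tested.

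Relative to endothelial markers, Selp stood at -0.22 ± 0.10 in PGISp and -0.61 ± 0.16 in control spines (SD, n = 4 each), a change of 0.39. Relative to megakaryocyte and platelet markers the change was 0.43. Since these lists had medians of 0.02 and 0.01, both values largely repeat the difference of Selp itself. These changes ran from 0.35 to 0.47 and from 0.33 to 0.50 when single arrays were left out.

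**Figure D4:**
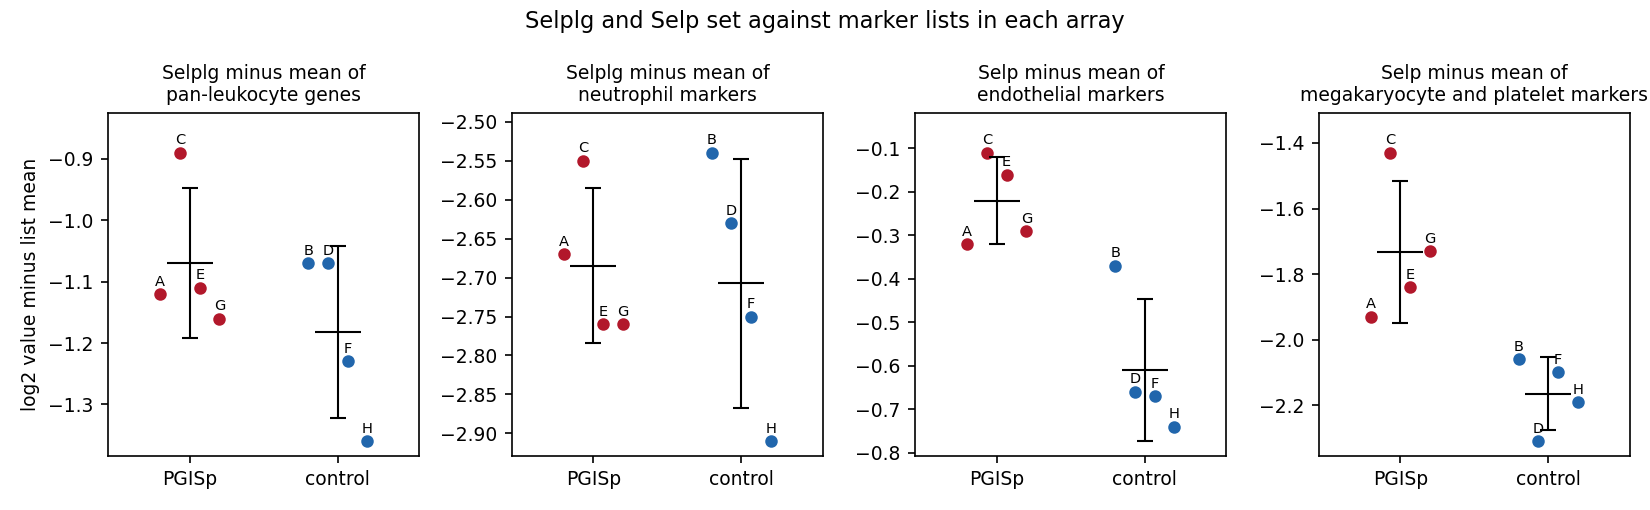
Log2 value of Selplg or Selp minus the mean log2 value of a marker list, on each PGISp (red) and control (blue) array, with mean and SD (n = 4 each). Selplg overlaps between groups against both leukocyte lists, while Selp is higher in PGISp on all 4 arrays against endothelial (change 0.39) and platelet (change 0.43) lists.

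The genes whose values over the 8 arrays lay nearest to each member were found among 8893 others, by the root mean square distance of values centred on each gene's mean. Nearest to Selplg were Coro1a (distance 0.064), an actin regulator of leukocytes, S100a11 (0.074), Alox5ap (0.076), which serves leukotriene synthesis, Rab27a (0.084) and Pxylp1 (0.086), against a median distance of 0.393. Nearest to Selp were Hvcn1 (0.053), a proton channel of phagocytes and B cells, Itgb2l (0.059), an integrin beta chain related to Itgb2, H2-Ab1 (0.059), Slc2a3 (0.061) and Cap1 (0.062), against a median of 0.274. Both searches were added after the values were seen. The distance includes the group difference, so genes with a like difference must lie close. The differences were 0.57 to 0.68 for the genes nearest to Selplg and 0.4 to 0.44 for those nearest to Selp. Their nearness therefore adds nothing on shared regulation or cell type. For Itgb2 the nearest were 2510039O18Rik (0.04), Uts2r (0.043), Slc30a7 (0.045), Ltbr (0.06) and Pknox1 (0.062), with a median of 0.186. For Icam1 they were Rbck1 (0.039), Srsf1 (0.05), Rab8b (0.055), Ywhah (0.059) and Tmie (0.061), with a median of 0.188. Itgb2 and Icam1 varied little (root mean square 0.144 and 0.154), so many flat genes lie close to them.

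Some members lie beside related genes in the genome. In the RefSeq annotation of GRCm38.p6, Itgam, Itgax and Itgad are consecutive protein-coding genes, and Icam1 is followed by Icam4 and Icam5. Of these neighbours Icam4 and Itgad did not pass the test (adjusted p = 0.583 and 0.454 in limma).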

How the data were processed

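Total RNA (500 ng per spine) was amplified and hybridised to MouseRef-8 arrays. The authors read the arrays in BeadStudio per the labels (GenomeStudio in their methods), and the deposited log2 values had been transformed by variance stabilization and normalized by robust splines in lumi. Sorted values of any 2 arrays lay at most 0.0050 apart, so differences in total signal between spines cannot be recovered. The second deposited table, with 16 columns of signals and detection p-values, was not used, since its headings match no sample label. Of 25695 probes with values, 23976 carried 1 gene symbol, updated through the gene identifier for 23960. The filter kept 12492 probes, and each gene was read by its brightest kept probe (9608 genes).

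Groups came from the treatment labels. Tests used limma (lmFit and eBayes) and exact permutation tests. Each array was 1 spine of a separate mouse, so p-values measure the spread between 4 mice a group, whose number limits the precision. The PGISp mice were female, while controls B and F carried signal of the Y-linked gene Eif2s3y (8.57 and 8.33). The groups may therefore differ in sex, and its part in the differences was not tested. Named genes were all members, up to 4 called genes of each pathway list with the largest change, Vcam1 and Pecam1, up to 3 of the brightest markers of main lists, and the 5 nearest genes. Icam4 and Itgad were named as neighbours after their values were seen. Members and lists were chosen with earlier results of these data known. The methods' multivariate permutation was not run, and their t-test was adjusted by Benjamini-Hochberg. Steps were tested on simulated data. Fits ran in R 4.3.3 with limma 3.58.1. Other steps ran in Python 3.11.15, using pandas 2.3.3 and numpy 2.4.6 for tables, scipy 1.17.1 for exact tests and matplotlib 3.10.9 for plots. An item withheld for evaluation is not reported here.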

Additional observations from a re-analysis of the deposited data

Results flagged for a closer look

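Over 42 groups of 4 arrays, 2 held an array far from the other 3, against about 2.1 by chance at 1 in 20. These groups were those of the measured members, every called gene of the pathway lists, Vcam1 and Pecam1. Itgam read 6.98 on control F, and 6.90 to 6.91 on the other controls. Pecam1 read 7.40 on control B, and 7.65 to 7.70 on the other controls.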

How the results depend on the processing

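Over all genes, 601 were higher and 438 lower in PGISp spines. These counts were 258 and 153 by the methods' t-test after Benjamini-Hochberg adjustment, 363 and 214 at an adjusted p under 0.05, and 123 and 40 without controls B and F. Leaving out single arrays gave 263 (without control F) to 818 (without PGISp G) higher and 142 (without control F) to 746 (without PGISp G) lower. Without control B they were 387 and 232, and the lower count was 283 without PGISp C and 224 without PGISp E. Of the members, 2 were called higher, and 1 to 2 with single arrays left out, Selp being lost without control F. The count was 1 by the methods' t-test and 1 without controls B and F, Selplg in each case. Of 261 single-gene values under alternatives, 227 kept their direction and side of the threshold, 30 lost the call, 1 gained it (Sele) and 3 changed sign. The sign changes were those of Pecam1 (-0.04 without control B, -0.05 without PGISp C and -0.03 without controls B and F), which was not called in any fit and ran from -0.05 to 0.06 with single arrays left out. The cause was not tested. Of the pairs, Selplg relative to Selp ran from 0.21 to 0.28. Itgam relative to Itgb2 ran from -0.17 to -0.01, while Itgb2 relative to Icam1 (-0.06 to 0.15) and Itgam relative to Icam1 (-0.16 to 0.03) changed sign. No exact p was computed for them with arrays left out. No paired analysis was run, because PGISp and control spines came from separate mice and the labels give no pairing. Itgax and Itga4 lay at background and Sele near it, so changes of these genes could not be measured at this signal. Itgam, Itgb2 and Icam1 lay on average 0.21, 0.43 and 0.55 above background, so their upper bounds hold for array values only.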

Other observations

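Among the controls, Selplg and Selp followed the same order of arrays, with B highest, then D, F and H. The mean log2 values of the pan-leukocyte list (9.80, 9.65, 9.62 and 9.57) and of the neutrophil list (11.28, 11.21, 11.14 and 11.12) had the same order over these controls. This is also the order of the positions on the BeadChip. With position as a covariate Selplg had a difference of 0.63 (adjusted p = 0.004 in limma) and Selp of 0.40 (adjusted p = 0.0392). The PGISp arrays showed no such order, since C was the highest for both genes.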
